A study of Mus musculus with 6 samples.

Results

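The genes that carry out and control the oxidation of fatty acids were examined in muscle stem cells (MuSCs), the PAX7-positive cells found between the basal lamina and the myofiber. The group holds 36 of the 25166 genes of the deposited table, each found by its gene symbol, and was chosen by function, with no measured value in the rule. It comprises the carnitine shuttle, the enzymes of mitochondrial β-oxidation with the peroxisomal thiolase *Acaa1a*, the acyl-CoA synthetases and genes of fatty acid uptake and binding. The PPAR receptors, their PGC-1 coactivators and the uncoupling proteins UCP2 and UCP3 also belong to it. Freshly isolated MuSCs of 3 Sirt6mKO samples were compared with those of 3 controls (Ctrl), with 1 RNA-seq library per sample, to ask how loss of the deacetylase SIRT6 affects expression in these cells. Sirt6mKO mice were Pax7-ICNCre pos Sirt6 fl/fl, in which Cre recombinase, constitutively active and driven by the Pax7 promoter, removes exons 4 to 6 of *Sirt6* throughout the skeletal muscle lineage. The controls are Cre-negative Sirt6 fl/fl mice in the study's legend and wild type in the labels. All samples are of C57BL/6 strain, and the legend gives male mice of 12 weeks for this set of experiments.

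Long-chain fatty acids are first activated to acyl-CoA by acyl-CoA synthetases and then carried into mitochondria by the carnitine shuttle, in which CPT1 is the regulated step. In the matrix, acyl-CoA dehydrogenases, hydratase, hydroxyacyl-CoA dehydrogenase and thiolase remove an acetyl-CoA in each round, and the electrons of the first step pass through the electron transfer flavoprotein to ubiquinone. PPARα and PPARδ are nuclear receptors that bind fatty acids and, with the coactivators PGC-1α and PGC-1β, raise transcription of many of these genes, whereas PPARγ is best known from adipocytes. Quiescent MuSCs are known to rely on fatty acid oxidation more than activated ones. UCP2 is a carrier of the inner mitochondrial membrane.

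Values are given as signal, which the authors obtained by dividing the reads of a gene by 1 factor per library and rounding, so that signals of 1 gene can be compared between libraries. From 1267947 reads in Ctrl replicate 3 to 3211528 in Ctrl replicate 2 stood behind a library, as estimated from the steps in the values, and a limit of 3 reads corresponded to a signal of 2.19 to 5.38. The MuSC markers had a summed signal of 14434 to 15803 in Sirt6mKO and of 16320 to 18452 in Ctrl, and 3 of these 12 genes passed the adjusted p. *Pax7* and *Chrdl2* were lower in Sirt6mKO (log2 fold change -0.84 and -1.10, limma with Benjamini-Hochberg adjusted p = 0.0041 and 0.0021), and *Cd34*, a surface marker of MuSCs, was higher (0.60, adjusted p = 0.031 by limma). Markers of myofibers summed to 4536, 4771 and 2645 in Sirt6mKO and to 1951 to 2047 in Ctrl. *Acta1* and *Mylpf* of this list rose at least 2-fold, with 6 of its 16 tested genes higher at the adjusted p. Of the 8 tested fibroblast markers *Pdgfra*, *Col1a1* and *Col1a2* rose, and their list summed to 11863 to 13678 and 8302 to 12524. The mural list summed to 3798 to 5050 and 2230 to 3415, with *Notch3*, which MuSCs also express, making up most of it, and none of its 6 tested genes passed. The erythroid list summed to 545 in Ctrl replicate 2 and to 13 to 60 in the other libraries. The endothelial and leukocyte lists summed to 394 to 471 and 44 to 80 in Sirt6mKO and to 483 to 592 and 39 to 69 in Ctrl. *Tek* made up most of the endothelial sum, at 349 to 412 in Sirt6mKO and 430 to 562 in Ctrl. Adipocytes express many of the genes studied here, and their markers summed to 10 to 18 and 5 to 18, of which none reached the signal needed for testing. *Sirt6* had a signal of 19, 20 and 13 in Sirt6mKO and of 18, 17 and 20 in Ctrl. This gene-level value also counts reads outside the deleted exons, so the labels could not be checked on it. In a bulk sample, fewer cells of a type and less RNA per cell cannot be told apart.

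A gene was tested when its mean signal over the 6 libraries was at least 5, which held for 30 of the 36 genes, and was called at an adjusted p of at most 0.05 with at least a 2-fold change. *Ucp2* was the only gene of the group to be called. It rose 2.72-fold in Sirt6mKO, and no gene was called lower. Among all 14227 genes tested, 1.57% were called higher and 1.02% lower, or 2.59% in either direction. *Ppargc1b*, which encodes PGC-1β, was also higher at the adjusted p but by less than 2-fold. Thus 2 of the 30 genes passed the adjusted p alone in the higher direction and 0 in the lower, against 2.64% and 1.88% of all genes tested. The libraries of the 2 groups did not overlap for 6 of the 30 genes, with *Ucp2*, *Ppargc1a*, *Ppargc1b* and *Hadh* higher and *Decr1* and *Acsl1* lower. Over all genes tested the share was close to this, at 11.1% and 10.1% in these directions and 21.2% in either. An unadjusted p under 0.05 was reached by 8 of the 30 genes and by 18.1% of all genes tested. The log2 fold changes ran from -0.76 to 1.44 with a median of 0.08, compared to a median of 0.00 over all genes tested, and 21 were above 0.

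**Figure D1:**
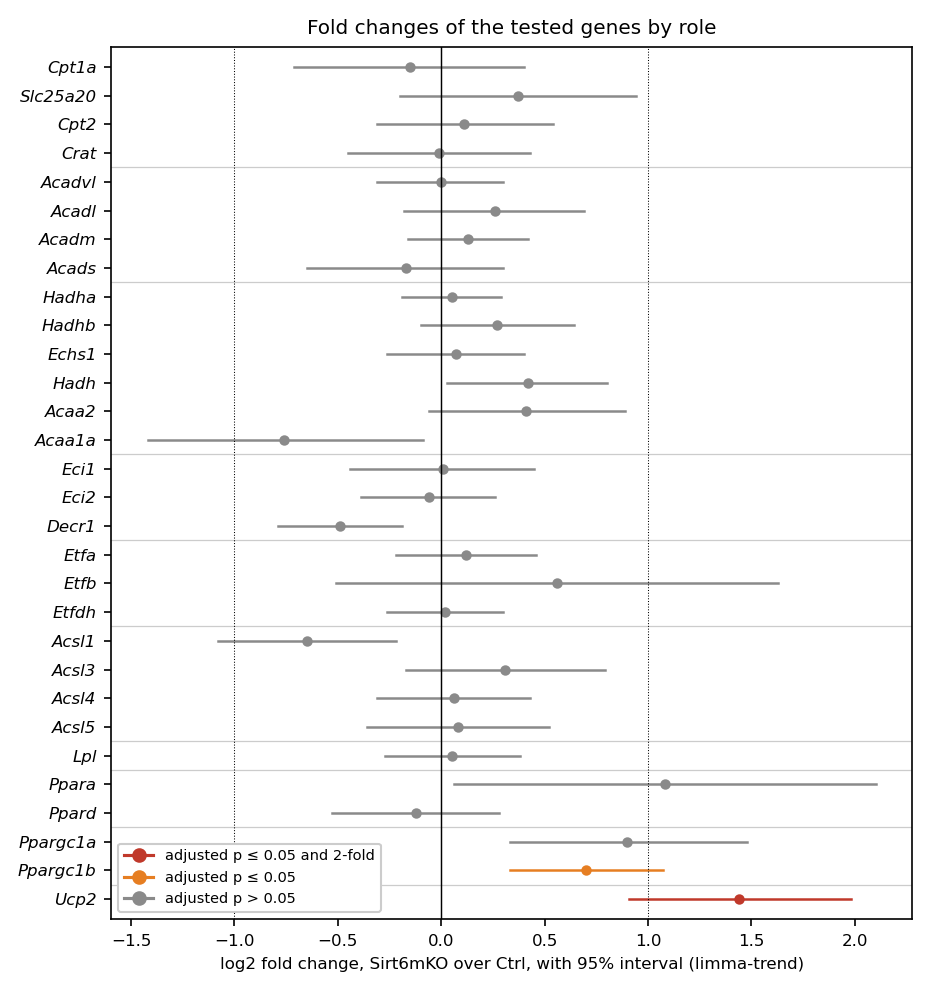
Log2 fold change of each of the 30 tested genes, Sirt6mKO over Ctrl, on the horizontal axis, with the 95% interval of limma-trend as a line. Genes are ordered by role from the carnitine shuttle at the top to *Ucp2* at the bottom, grey lines part the roles, and dotted lines mark a 2-fold change. The interval of *Ucp2* runs from 0.91 to 1.98, that of *Ppargc1b* from 0.33 to 1.07, and most of the oxidation enzymes lie close to 0.

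*Ucp2* (ENSMUSG00000033685, GRCm38 chromosome 7, 100493337 to 100502020, plus strand) lies downstream of *Ucp3* (100472990 to 100486432) on the same strand. Its 250 bases upstream of the RefSeq start site are shown because it was the called gene, next to those of *Ppargc1a*, which encodes the coactivator PGC-1α, and of *Acadm*, the medium-chain acyl-CoA dehydrogenase, as an oxidation enzyme without a detected change. The sequences are from RefSeq on GRCm38.p6 and run 5′ to 3′ on the strand of the gene, at chr7:100493108-100493357 (plus), chr5:51567726-51567975 (minus) and chr3:153944644-153944893 (minus). Capitals mark a GC box (GGGCGG) in *Ucp2* and a PPAR half-site (AGGTCA) in *Acadm*, both on the opposite strand.
Ucp2: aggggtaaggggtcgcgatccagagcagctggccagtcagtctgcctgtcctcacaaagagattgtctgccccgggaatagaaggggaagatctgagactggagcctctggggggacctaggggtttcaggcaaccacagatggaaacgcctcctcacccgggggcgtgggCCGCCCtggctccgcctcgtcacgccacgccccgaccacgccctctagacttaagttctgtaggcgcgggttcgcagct
Ppargc1a: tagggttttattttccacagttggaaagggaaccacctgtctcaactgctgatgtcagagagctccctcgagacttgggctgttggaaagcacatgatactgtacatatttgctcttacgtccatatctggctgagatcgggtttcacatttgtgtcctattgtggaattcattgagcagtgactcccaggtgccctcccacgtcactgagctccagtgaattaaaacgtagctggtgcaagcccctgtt
Acadm: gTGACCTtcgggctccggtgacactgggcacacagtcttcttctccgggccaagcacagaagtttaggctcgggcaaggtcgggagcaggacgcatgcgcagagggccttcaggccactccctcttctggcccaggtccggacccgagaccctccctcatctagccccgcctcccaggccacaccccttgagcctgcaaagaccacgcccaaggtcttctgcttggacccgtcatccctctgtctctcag
Windows of this kind were found for 29 of the 36 genes, with 32 windows in all, and each motif was searched on both strands. The half-site stood in 8 of them (25%), compared to 14% of all 32851 windows. It was found in *Acadm*, *Acadvl*, *Cd36*, *Cpt1a*, *Echs1*, *Pparg* and *Ucp3*, of which the 4 tested genes did not pass the adjusted p. The direct repeat, in which AGGTCA follows AGGTCA after any 1 base, the form bound by PPAR with RXR, stood in 0 of the 32 windows and in 0.0335% of all. The GC box stood in 21 windows (65.6%) and in 32.7% of all, and the windows had a median GC content of 59.6% compared to 52.4%. The cAMP response element (TGACGTCA) stood in 0 of the 32 and in 1.55% of all. The *Ppargc1a* window adjoins the outermost 5′ end of the gene (51567726), and sequence before any start site further inside the gene was not searched.

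In replicates 1, 2 and 3, the *Ucp2* signal reached 215, 321 and 295 for Sirt6mKO and 95, 68 and 154 for Ctrl. Every Sirt6mKO library lay above every control, with the gap between Sirt6mKO replicate 1 and Ctrl replicate 3 being the narrowest. The mean was 277 ± 55.2 (SD, n = 3) compared to 106 ± 44.0 (SD, n = 3), a log2 fold change of 1.44 with a standard error of 0.25 (limma with Benjamini-Hochberg adjusted p = 0.0057). The exact two-sided permutation p was 0.1, the smallest that 3 libraries against 3 can give. Leaving out 1 library at a time gave log2 fold changes of 1.17 to 1.75 and adjusted p of 0.0011 to 0.049 by limma. The summed myofiber and mural signals given above were also separate between the groups, the mural one being mostly *Notch3*. So were the MuSC and endothelial sums, which were lower in Sirt6mKO, the endothelial one being mostly *Tek* (log2 fold change -0.35). The median log2 fold change of the 4 tested endothelial genes was 0.08. All 8 tested fibroblast markers were above 0, with a median log2 fold change of 1.61. Their sums, mostly *Col3a1* and *Gsn* (log2 fold change 0.06 and 0.27), overlapped. The part of these cell types in the values of *Ucp2* and of the other genes was not tested. Sirt6mKO replicate 3 had the lowest myofiber sum of its group (2645), still above every control, and the highest fibroblast sum of all libraries (13678). Over the 16 tested myofiber markers, its median log2 difference from the Ctrl mean was only 0.13. This median was 1.33 and 1.46 in Sirt6mKO replicates 1 and 2 and -0.05 to 0.09 in the controls. The *Ucp2* signal of Sirt6mKO replicate 3 was 295, close to the highest. With both Sirt6mKO replicates 1 and 2 left out, a choice made after seeing the data, the log2 fold change of *Ucp2* was 1.55. The adjusted p of limma was then 0.43, with 1 Sirt6mKO library left, which is assumed to vary like the controls. The exons of *Ucp2* overlap those of *Dnajb13* on the other strand, which had a signal of 1 or 2 in every library. The related *Ucp3*, the uncoupling protein of mature muscle, had a signal of 1 to 5 and could not be tested.

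The PGC-1 coactivators dock on PPARs and other nuclear receptors. *Ppargc1b* (GRCm38 chromosome 18, 61298136 to 61400431) had a signal of 82, 95 and 79 in Sirt6mKO and of 58, 48 and 50 in Ctrl. The groups were separate and each was narrow, so that the lowest Sirt6mKO library exceeded the highest control by more than the range of either group. The mean signal was 85.3 ± 8.50 compared to 52.0 ± 5.29 (SD, n = 3 each), a log2 fold change of 0.70 with a standard error of 0.17 (limma with Benjamini-Hochberg adjusted p = 0.035). By limma it still passed without Ctrl replicate 1 (adjusted p = 0.036). It no longer passed without Ctrl replicate 2 or 3 or without Sirt6mKO replicate 1, 2 or 3, where the adjusted p of limma was 0.071 to 0.17.

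*Ppargc1a* (GRCm38 chromosome 5, 51454250 to 51567726) had a signal of 47, 38 and 74 in Sirt6mKO and of 30, 22 and 29 in Ctrl. The groups did not overlap, with Sirt6mKO replicate 3 far above the others and replicate 2 close to the controls. The mean was 53.0 ± 18.7 compared to 27.0 ± 4.36 (SD, n = 3 each). The log2 fold change of 0.90 with a standard error of 0.27 did not pass the test (limma with Benjamini-Hochberg adjusted p = 0.082), and its 95% interval ran from 0.33 to 1.48. Sirt6mKO replicate 3 had the lowest myofiber sum and the highest fibroblast sum of its group. In this library *Ppargc1a* was the highest of its group (74) and *Ppargc1b* the lowest (79).

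Of the receptors, *Ppara*, the receptor of fasting fat oxidation, had a signal of 20, 31 and 24 in Sirt6mKO and of 20, 16 and 4 in Ctrl. The lowest Sirt6mKO library equalled the highest control, and Ctrl replicate 3, the library with the fewest reads, was at or under the limit of 3 reads. Its log2 fold change of 1.08 had a standard error of 0.47 and did not pass (limma with Benjamini-Hochberg adjusted p = 0.25), and it was 0.44 without Ctrl replicate 3. *Ppard*, the receptor that is widely expressed in muscle, had a signal of 100, 111 and 88 and of 121, 129 and 81, with overlapping groups and a log2 fold change of -0.12 (95% interval -0.53 to 0.28). *Pparg* was at or under 3 reads in all 6 libraries. Per kilobase of transcript, the control level was 33.7 for *Ppard*, 3.9 for *Ppara* and 0.2 for *Pparg*.

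**Figure D2:**
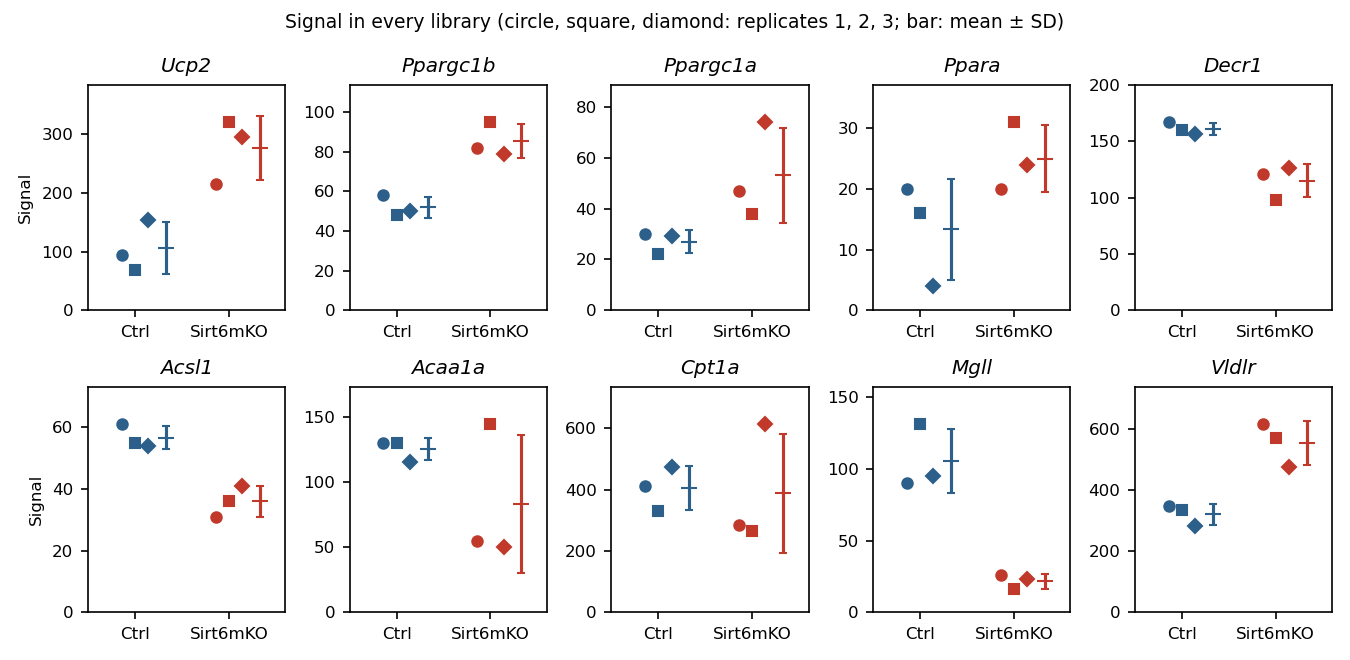
Signal in each of the 3 Ctrl and 3 Sirt6mKO libraries for 10 genes, 1 panel per gene with its own axis from 0, where circle, square and diamond stand for replicates 1, 2 and 3 and the bar shows mean ± SD. *Ucp2*, *Ppargc1b*, *Ppargc1a* and *Vldlr* have every Sirt6mKO library above the controls, *Decr1*, *Acsl1* and *Mgll* have every one below, and the groups meet or overlap for *Ppara*, *Acaa1a* and *Cpt1a*.

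The 21 genes of the carnitine shuttle, the β-oxidation enzymes and the electron transfer chain to ubiquinone showed no called member among the 20 tested. By limma with Benjamini-Hochberg adjustment 0 passed the adjusted p and 3 had an unadjusted p under 0.05, against 4.52% and 18.1% of all genes tested. Their median log2 fold change was 0.06, with 13 above and 7 below 0. Summed over these genes, the signal reached 2562, 2372 and 2999 for Sirt6mKO and 2618, 2537 and 2616 for Ctrl. The 3 controls lay within the range of the Sirt6mKO libraries.

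In the carnitine shuttle, *Cpt1a*, the non-muscle form of the rate-limiting acyltransferase, had a signal of 285, 267 and 613 in Sirt6mKO and of 412, 330 and 473 in Ctrl. Sirt6mKO replicates 1 and 2 lay below every control and replicate 3 above, so that the log2 fold change of -0.15 (95% interval -0.71 to 0.40) is the average of opposite deviations. *Cpt1b*, the form of mature muscle, had a signal of 0 to 5, and 5 of the 6 libraries were at or under 3 reads. The carrier *Slc25a20*, the inner acyltransferase *Cpt2* and the carnitine acetyltransferase *Crat* had log2 fold changes of 0.37, 0.11 and -0.01, none past the adjusted p.

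The acyl-CoA dehydrogenases, which take the first oxidation step for chains of different length, lay between -0.17 for *Acads* and 0.26 for *Acadl*. *Acadl*, the long-chain form, had a signal of 228, 196 and 348 in Sirt6mKO and of 214, 171 and 249 in Ctrl, and the groups overlapped. *Acadm* had a signal of 210, 165 and 170 and of 171, 160 and 163. Its groups overlapped too, and the 95% interval of its log2 fold change, -0.16 to 0.42, did not reach a 2-fold change.

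For the following steps, *Hadha*, the α-subunit of the trifunctional protein, had a signal of 449, 397 and 430 in Sirt6mKO and of 422, 436 and 376 in Ctrl. The libraries of both groups interleaved, and its log2 fold change of 0.05 had the narrowest interval of the enzymes (-0.19 to 0.29). The β-subunit *Hadhb*, the short-chain hydratase *Echs1* and the thiolase *Acaa2* were at 0.27, 0.07 and 0.41 and did not pass the test. *Hadh*, the short-chain hydroxyacyl-CoA dehydrogenase, had a signal of 99, 104 and 114 in Sirt6mKO and of 92, 87 and 61 in Ctrl. Its groups were separate by a small gap, and the log2 fold change of 0.42 did not pass (limma with Benjamini-Hochberg adjusted p = 0.24).

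*Acaa1a*, a thiolase of peroxisomes, stood apart within the Sirt6mKO group, with a signal of 55, 144 and 50 compared to 130, 130 and 115 in Ctrl. Sirt6mKO replicates 1 and 3 were below every control, whereas replicate 2 exceeded them all. The log2 fold change was -0.76 with a standard error of 0.31 (limma with Benjamini-Hochberg adjusted p = 0.22), and without Sirt6mKO replicate 2 it was -1.24 with an adjusted p of 0.0075. *Myd88*, whose exons overlap those of *Acaa1a* on the other strand, had a signal of 64 to 72 in all libraries.

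Of the auxiliary enzymes for unsaturated fatty acids, *Decr1*, the mitochondrial dienoyl-CoA reductase, had a signal of 121, 98 and 126 in Sirt6mKO and of 167, 160 and 156 in Ctrl. Every Sirt6mKO library was below every control. The mean of 115 ± 14.9 compared to 161 ± 5.57 (SD, n = 3 each) gave a log2 fold change of -0.49 with a standard error of 0.14, which did not pass (limma with Benjamini-Hochberg adjusted p = 0.073, and 0.061 to 0.69 over its alternatives). The isomerases *Eci1* and *Eci2* were at 0.01 and -0.06. The subunits of the electron transfer flavoprotein, *Etfa* and *Etfb*, and its dehydrogenase *Etfdh* were at 0.12, 0.56 and 0.02. *Etfb* had a signal of only 2 to 7, and its 95% interval of -0.51 to 1.63 does not tell a 2-fold rise from no change.

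None of the 4 acyl-CoA synthetases passed the test. *Acsl1*, the form that in muscle and fat feeds fatty acids to oxidation and storage, had a signal of 31, 36 and 41 in Sirt6mKO and of 61, 55 and 54 in Ctrl. Its groups were separate, with a mean of 36 ± 5.00 compared to 56.7 ± 3.79 (SD, n = 3 each). The log2 fold change of -0.65 with a standard error of 0.20 did not pass (limma with Benjamini-Hochberg adjusted p = 0.093, and 0.077 to 0.71 over its alternatives). *Acsl3*, *Acsl4* and *Acsl5* overlapped between groups, at 0.31, 0.06 and 0.08. Of uptake and binding, the lipoprotein lipase *Lpl* had a signal of 309, 327 and 318 in Sirt6mKO and of 359, 337 and 237 in Ctrl, with a log2 fold change of 0.05 (95% interval -0.27 to 0.38). The fatty acid translocase *Cd36* and the binding proteins *Fabp3* and *Fabp4* had signals of at most 5 and could not be tested.

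**Figure D3:**
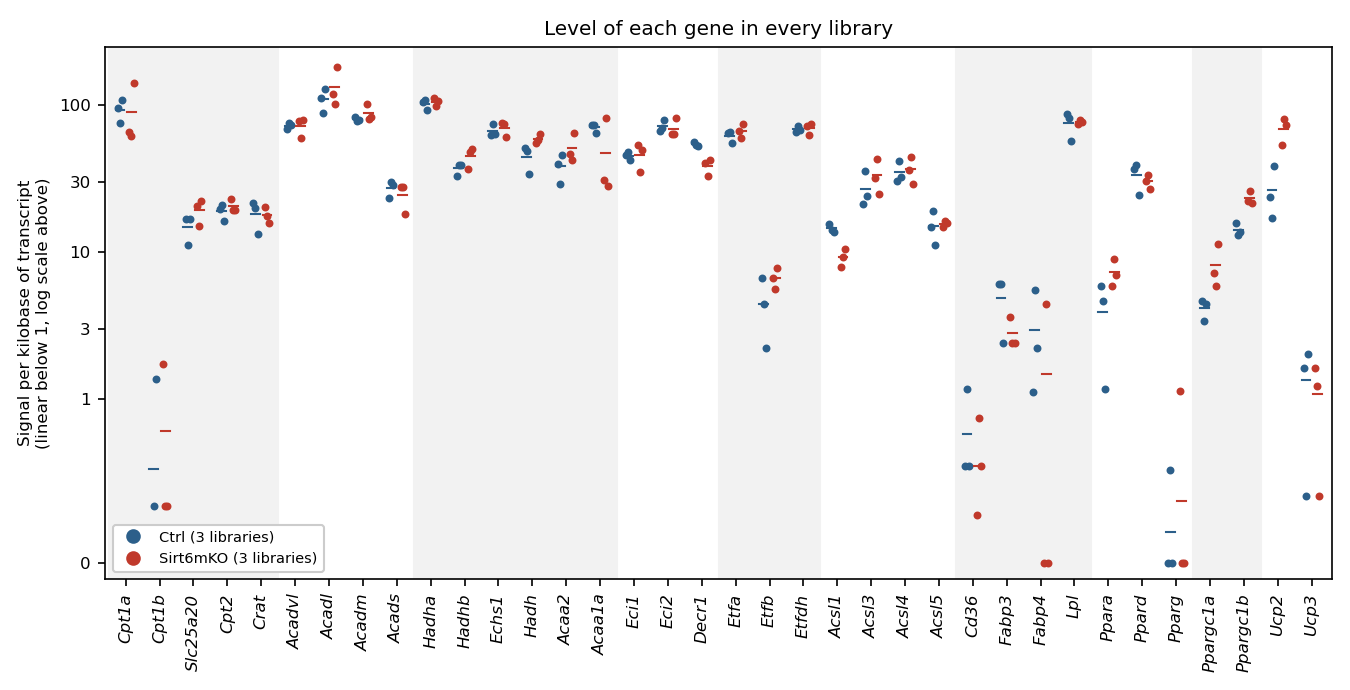
Signal per kilobase of the principal transcript for all 36 genes, ordered by role with alternating shading, on an axis that is linear below 1 and logarithmic above. Points are libraries and short bars are group means, with Ctrl in blue and Sirt6mKO in red. *Acadl*, *Hadha* and *Cpt1a* are at the top with control means of 110.3, 102 and 93.8, and *Pparg*, *Cpt1b* and *Cd36* at the bottom with 0.2 to 0.8.

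Levels of different genes were compared as signal per kilobase of the principal transcript. In the controls, *Acadl* (110.3 ± 20.4), *Hadha* (102 ± 7.8) and *Cpt1a* (93.8 ± 16.6) had the highest levels (SD, n = 3 each), and the spreads of these 3 overlapped. *Acadm*, *Lpl*, *Acadvl*, *Eci2*, *Acaa1a*, *Etfdh* and *Echs1* followed at 80.4 to 67.0. The regulators were lower, with *Ppargc1b* at 14.2 and *Ppargc1a* at 4.2. *Ucp2* was at 26.5 in Ctrl, rank 21 of the 36, and at 69.5 in Sirt6mKO, close to the *Etfdh* level there (70.1). The order depends on the length used, since with all exons of a gene counted *Hadha* moved from rank 2 to rank 4 and *Acadvl* from rank 6 to rank 2. Exons of *Acsl1*, *Acsl5*, *Acadvl*, *Hadha*, *Crat*, *Echs1*, *Eci2*, *Etfdh*, *Fabp3* and *Mgll* also overlap a gene on the other strand, and those of *Cpt1b*, *Etfb* and *Acsl3* overlap a gene on the same strand. Reads on several genes were left out of the counts. Since the use of strand is not stated, it is not known whether reads on stretches shared with the other strand were lost in this way.

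Other genes of the pathway were taken from 8 lists with 116 genes, of which 108 were in the table and 100 were tested. Only *Mgll* was called lower, and 0 were called higher, against 1.02% and 1.57% of all genes tested. By limma, 19 of the 100 had an unadjusted p under 0.05, against 18.1%. At the adjusted p alone 4 were higher and 1 was lower, against 2.64% and 1.88% of all genes tested. Separate groups were found for 13 in the higher and 6 in the lower direction, against 11.1% and 10.1%. The median log2 fold change was 0.05. *Mgll*, the monoacylglycerol lipase that releases the last fatty acid in lipid droplet lipolysis, had a signal of 26, 16 and 23 in Sirt6mKO and of 90, 131 and 95 in Ctrl. The groups were far apart, with the highest Sirt6mKO library well under the lowest control. Its log2 fold change was -2.24 with a standard error of 0.23 (limma with Benjamini-Hochberg adjusted p = 2.1e-04). The other 6 tested lipolysis genes did not pass, and *Pnpla2*, the lipase of the first step, was at 0.09.

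*Vldlr*, a lipoprotein receptor that takes up triglyceride-rich particles together with LPL, rose from 347, 336 and 283 in Ctrl to 616, 571 and 475 in Sirt6mKO. The groups were separate, and the log2 fold change of 0.78 with a standard error of 0.13 passed the test (limma with Benjamini-Hochberg adjusted p = 0.0050). It passed without any single library too, with an adjusted p of at most 0.046 by limma. With both Sirt6mKO replicates 1 and 2 left out, the log2 fold change was 0.57 for *Vldlr* and -2.13 for *Mgll*, with an adjusted p of 0.52 and 0.17 by limma for the 1 library left. *Pdk4*, a PPAR target that shuts pyruvate off from oxidation, had a signal of 200, 186 and 220 in Sirt6mKO and of 135, 127 and 160 in Ctrl. Its groups were separate and its log2 fold change was 0.52 (limma with Benjamini-Hochberg adjusted p = 0.049), which passed only without Ctrl replicate 3 when single libraries were left out, and in 7 of 19 alternatives in all. *Ivd*, the isovaleryl-CoA dehydrogenase of leucine breakdown, and *Thrsp*, a regulator of fatty acid synthesis, rose by 0.59 and 0.76 on the log2 scale (limma with Benjamini-Hochberg adjusted p = 0.043 and 0.040). *Ivd* stayed past the adjusted p only without Sirt6mKO replicate 3 or Ctrl replicate 2, and *Thrsp* only without Sirt6mKO replicate 3 or Ctrl replicate 1.

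Of the 9 tested PPAR target genes other than the group itself, *Pdk4* was the only one past the adjusted p. The lipid droplet protein *Plin2* was at -0.08. None of the 15 tested peroxisomal genes passed, and *Abcd3*, a peroxisomal fatty acid transporter, was at -0.10. None of the 20 tested PPAR partners and corepressors passed, with the coactivator *Ncoa1* at -0.08 and the corepressor *Ncor1* at -0.14. The 7 tested genes of AMPK, the energy-sensing kinase, and its activator LKB1 stayed between -0.12 and 0.13.

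**Figure D4:**
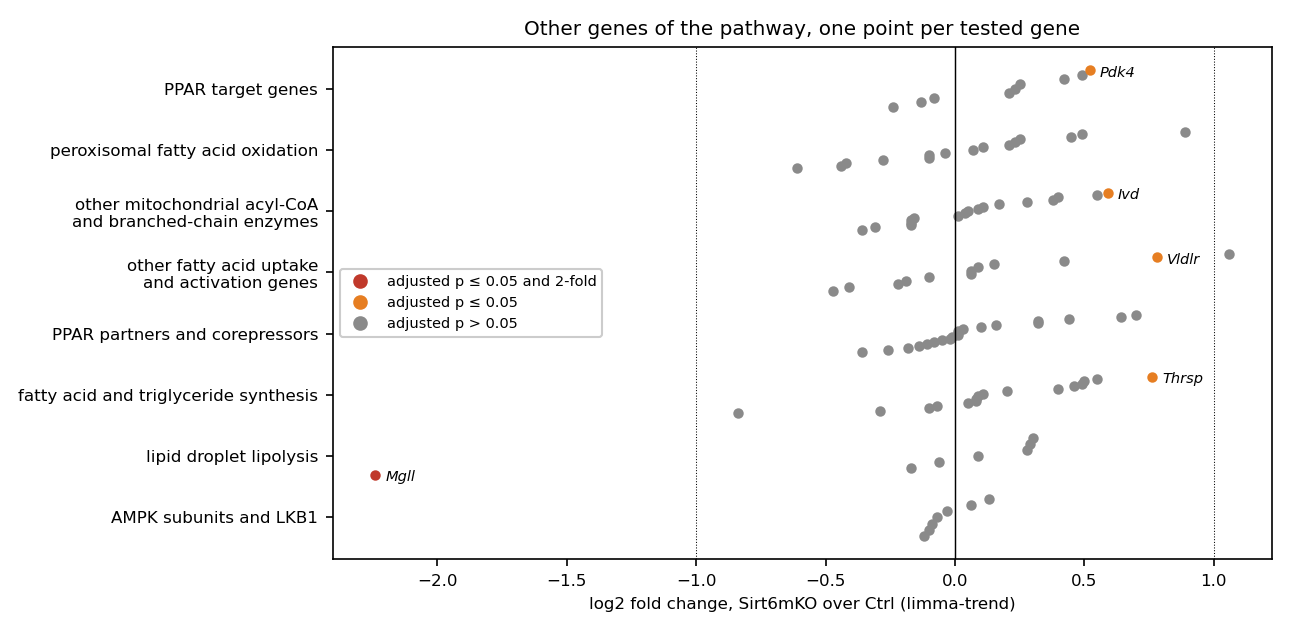
Log2 fold change, Sirt6mKO over Ctrl, of the 100 tested genes in the 8 other lists, 1 point per gene and 1 row per list, where a gene in more than 1 list is shown in each. *Mgll* at -2.24 lies alone on the left, and the named genes on the right, *Pdk4*, *Ivd*, *Vldlr* and *Thrsp*, lie between 0.52 and 0.78.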

How the data were processed

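RNA of 100 to 200 FACS-sorted MuSCs (1 to 5 ng) was sequenced per library. For the libraries, the labels give RiboGone with a SMARTer stranded kit and the methods RiboMinus with an Ion Total RNA-Seq kit. MuSCs were freshly isolated. The methods give a sort by surface markers or by a GFP or YFP reporter, and do not state which was used for these libraries. The study's reporting summary names a YFP reporter strain in the crosses that made Sirt6mKO mice. The authors aligned reads to mm10 (GRCm38) with STAR and obtained reads per gene from featureCounts, without those on several genes or regions, and the submitters' processing notes give versions 2.7.10a and 2.0.2. Use of strand in counting is not given in the sources used here. The deposited signal is reads divided by a DESeq2-type size factor and rounded, so tests for counts were not used.

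Where the mean signal was 5 or more, Sirt6mKO was set against Ctrl on the log2(signal + 1) scale by limma-trend (limma 3.58.1, R 4.3.3), and p-values were adjusted over all 14227 genes by Benjamini-Hochberg. Fold changes understate those of low genes. The fit was tested on simulated data. Alternatives changed the scaling, filter, pseudocount, threshold, variance model and block, or left out libraries. Nothing states that each library came from its own mouse, so p-values measure the spread between these samples. Limits of 3 reads cover counting error only. Positions and transcript lengths came from GENCODE on GRCm38, in which 99.7% of the identifiers were found, and upstream sequences from RefSeq. Gene sets and lists were chosen with earlier results of these data known. All 36 genes were accounted for. From the other lists, genes past the adjusted p (up to 5 per list) and up to 2 of high signal could be named, and from the marker lists genes past both thresholds (up to 4 per list). *Sirt6* and *Pax7* served as checks, and *Cd34*, *Notch3*, *Tek*, *Col3a1* and *Gsn* were named after their values were seen. Python 3.11.15, pandas 2.3.3, numpy 2.4.6 and matplotlib 3.10.9 served for tables and plots.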

Additional observations from a re-analysis of the deposited data

How the results depend on the processing

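Over 20 alternatives, *Ucp2* passed the adjusted p in 18 of 19 fits, *Ppargc1b* in 12 of 19, *Mgll* and *Vldlr* in 18 of 19 each, *Thrsp* in 13, *Ivd* in 11 and *Pdk4* in 7, the exception for *Ucp2*, *Mgll* and *Vldlr* being the fit without both Sirt6mKO replicates 1 and 2. The number of genes higher at the adjusted p was 1 with no filter on low values and 1 at an adjusted p of at most 0.01. With a mean signal of at least 50, 1 gene had separate groups in the lower direction. Without 1 library at a time, genes called lower numbered 0 to 1 (*Acaa1a* without Sirt6mKO replicate 2), genes at the adjusted p 1 to 2 higher and 0 to 1 lower, and genes with separate groups 5 to 10 higher and 2 to 4 lower, where 15.2 to 16.6% and 13.9 to 16.0% of all genes tested were separate. With both Sirt6mKO replicates 1 and 2 left out, added after seeing the data, 0 were called higher, 0 were higher at the adjusted p, and 16 and 6 were separate, against 26.4% and 25.8% of all genes tested, with 1 library in the group. Low genes are least precise in Ctrl replicate 3, where 3 reads are a signal of 5.38.

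Direction turned only for genes that did not pass. *Eci1* was at -0.01 with upper quartile scaling, equal library totals or log2 CPM and at -0.04 with limma voom on estimated reads (added after seeing the data), and *Acsl5* at -0.01 with voom. With both libraries left out, *Cpt1a* was at 0.61, *Acadvl* 0.13, *Echs1* -0.13, *Eci2* 0.18, *Acsl3* -0.07 and *Acsl4* -0.24, and the cause was not tested. Without single libraries, log2 fold changes ran from -0.28 to 0.03 for *Acads*, -0.07 to 0.13 for *Acadvl*, -0.09 to 0.21 for *Acsl4*, -0.11 to 0.26 for *Acsl5*, -0.54 to 0.06 for *Cpt1a*, -0.22 to 0.13 for *Crat*, -0.11 to 0.19 for *Eci1*, -0.18 to 0.01 for *Eci2*, -0.03 to 0.10 for *Etfdh*, -0.01 to 0.10 for *Hadha*, -0.13 to 0.17 for *Lpl* and -0.33 to 0.00 for *Ppard*.

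The replicate number was fitted as a replicate block although nothing states that the samples were paired. The deviations of same-numbered libraries correlated at 0.02, 0.07 and 0.19. Sirt6mKO replicate 1 correlated best with Ctrl replicate 2 (0.07), and Sirt6mKO replicates 2 and 3 with the control of the same number. The block gave 3 genes instead of 2 higher at the adjusted p, with *Ppargc1a* added (limma with Benjamini-Hochberg adjusted p = 0.045), and 1 called.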

Other observations

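Genes of fatty acid desaturation, chosen after their values were seen, varied more between libraries than between groups. *Scd1*, a stearoyl-CoA desaturase, had a signal of 2308, 2756 and 1171 in Sirt6mKO and of 1311, 1800 and 1366 in Ctrl. Its paralog *Scd2* had a signal of 1865, 2489 and 852 and of 1075, 1820 and 778. Replicate 2 was the highest of its group for both genes, and Sirt6mKO replicate 3 was the lowest of its group. Neither passed the test (limma with Benjamini-Hochberg adjusted p = 0.44 and 0.54). The estimated reads were highest in the same libraries, Sirt6mKO replicate 2 (3178134) and Ctrl replicate 2 (3211528), and their part in these values was not tested.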
